A study of Mus musculus with 8 samples.

Results

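Glycerol handling and triglyceride synthesis in brown adipose tissue was followed through 10 listed genes: Gk, Gpd1, Gpd2, Pck1 and Aqp7, which handle glycerol and the supply of glycerol 3-phosphate, and Gpam, Agpat2, Lpin1, Dgat1 and Dgat2, which act in the steps that turn it into triglyceride. Each gene was read from the probe set with the highest mean over all arrays among those that carry 1 gene symbol. By this rule 9 of the 10 genes were found, out of 22180 genes in the table. No probe set carried Gk, the glycerol kinase, as its only symbol in the annotation used, so Gk is not analysed here. The tissue came from male C57BL/6J mice of 14 weeks kept on normal chow, fasted overnight and given chow again for 1 h. 5 mice were labelled Abhd15 KO (their arrays are called KO-labelled) and 3 wild type (WT), with 1 array per mouse and 200 ng of total RNA per array. The labels do not say how the Abhd15 allele was made, or which litter, cage or harvest day a mouse came from, so p-values measure the spread between these 8 mice. The comparison asks whether loss of ABHD15, an adipocyte protein reported to bind phosphodiesterase 3B, goes with other levels of these transcripts shortly after feeding.

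Triglyceride is built on glycerol 3-phosphate. Fat cells make this backbone from dihydroxyacetone phosphate, which comes from glucose or, by glyceroneogenesis, from lactate and amino acids through phosphoenolpyruvate carboxykinase. Brown fat can also phosphorylate free glycerol, and it uses a pair of glycerol phosphate dehydrogenases to carry reducing power into mitochondria. Acyltransferases then add the fatty acids one by one, lipin removes the phosphate, and a diacylglycerol acyltransferase adds the last chain. Insulin and refeeding favour esterification in fat.

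The deposited values are log2 probe set intensities after RMA, a method that corrects background and makes the distributions of the arrays nearly alike. All 14 brown adipocyte markers read above the limit for dim genes in every array, the lowest value being 4.47, and the thermogenic uncoupling protein gene Ucp1 read 12.73 ± 0.15 in KO-labelled arrays (SD, n = 5) and 12.66 ± 0.13 in WT (SD, n = 3). Abhd15 read 6.12 ± 0.27 in KO-labelled arrays and 6.01 ± 0.19 in WT. A dimmer Abhd15 probe set (17266259) read 3.65 to 4.30 in KO-labelled arrays and 2.98 to 4.36 in WT. On both probe sets the groups overlapped, so the targeted transcript does not check the labels. Each direction given here rests on the labels alone. Which exons were removed is not stated in the labels. One array of each group stood apart. Angptl8, whose secreted product restrains lipoprotein lipase after a meal, read 7.90 in Abhd15 KO replicate 1 and 7.95 in WT replicate 2, and between 10.41 and 10.81 in all others. Results are therefore given with and without these arrays where they bear on them. Skeletal muscle markers also varied widely, with summed linear intensities of 812.9 to 5157.6 in KO-labelled arrays and 1275.0 to 8959.2 in WT. All 20 of them were lower in KO-labelled arrays, with 0 past the test.

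No member passed the test between the groups. With limma, 0 of 9 members had an adjusted p under 0.05 and 0 had an unadjusted p under 0.05. Over all 13229 genes tested, 0% were called at the adjusted threshold and 4.01% (530 genes) at the unadjusted one, so the members' count is close to that background. The arrays of the groups overlapped in all 9 members, where 2.77% of all genes tested did not overlap. The adjusted p of each member from limma was 0.9997. The median difference over the members, Abhd15 KO minus WT, was 0.07 log2, against 0.01 over all genes tested. Of the 9 members, 6 were higher and 3 lower in KO-labelled arrays, and 51.7% of all genes tested were higher there. In bulk tissue, fewer cells of a type and less RNA per cell cannot be told apart.

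**Figure D1:**
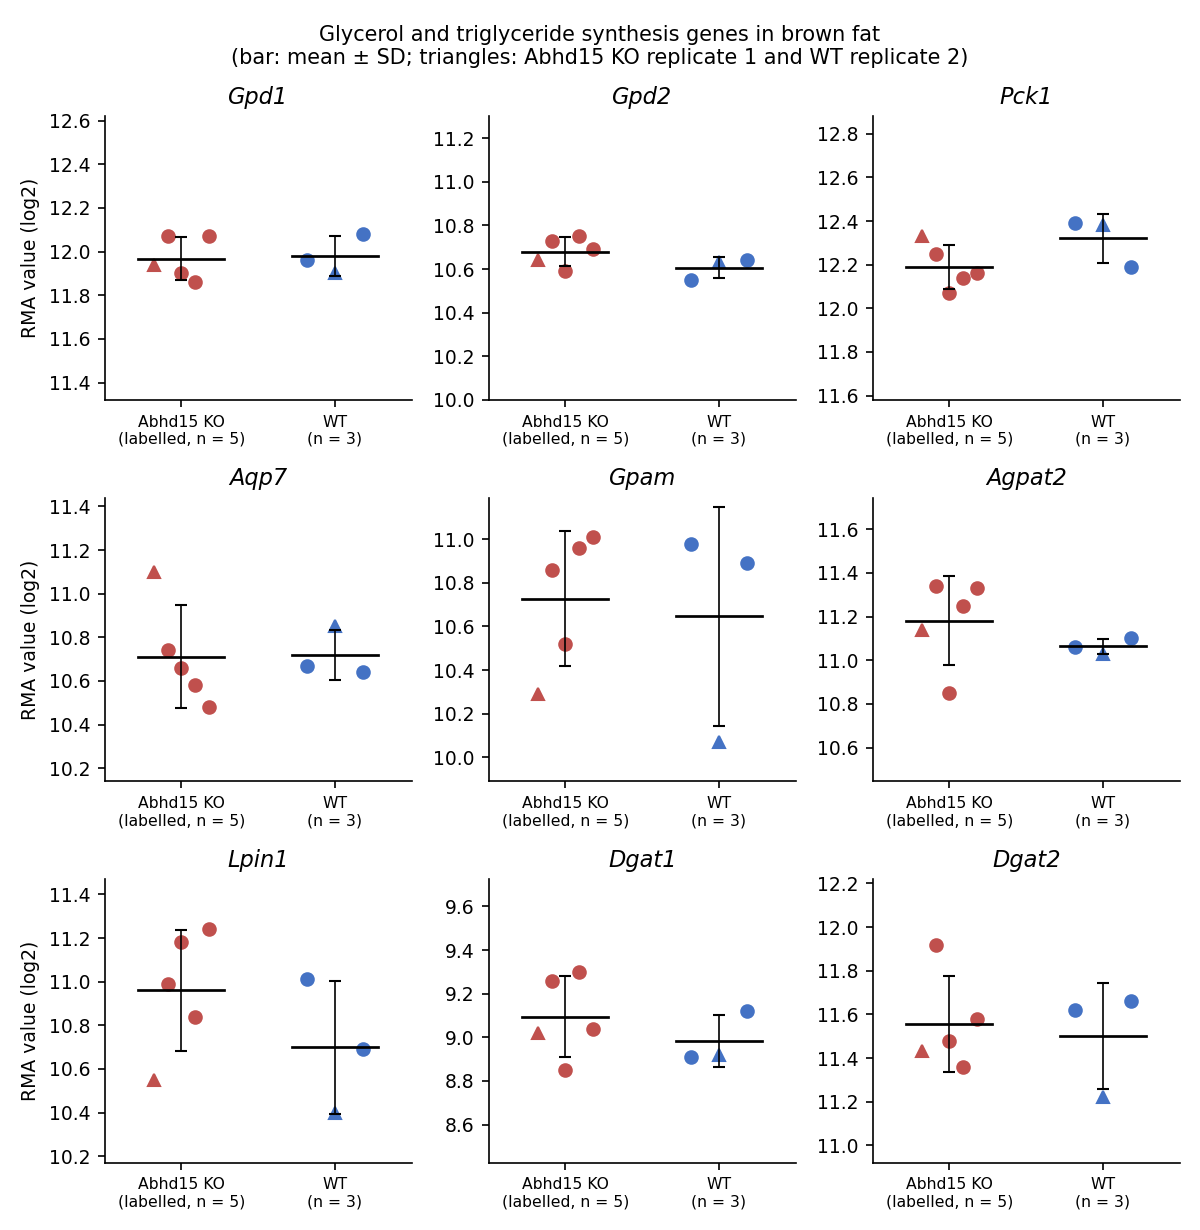
RMA values (log2, vertical axis) of the 9 members in each array, with the 5 arrays labelled Abhd15 KO left and the 3 WT arrays right in each panel. Every panel has the same span, bars show mean and SD, and triangles mark Abhd15 KO replicate 1 and WT replicate 2, which are lowest for Gpam and Lpin1 and highest for Aqp7.

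Among the genes of glycerol phosphate supply, Gpd1, Gpd2 and Pck1 varied little between mice and Aqp7 varied more. Gpd1, the cytosolic dehydrogenase that reduces dihydroxyacetone phosphate to glycerol 3-phosphate, read 11.94, 12.07, 11.90, 11.86 and 12.07 in KO-labelled arrays and 11.96, 11.90 and 12.08 in WT, both in the order of the replicate numbers, as for all members. The groups covered nearly the same values. The difference was −0.01 log2, and its 95% confidence interval ran from −0.25 to 0.22 (exact permutation test, two-sided, p = 0.75). A dimmer probe set of Gpd1 (17321626) read 7.36 to 7.62 in KO-labelled arrays and 7.53 to 7.58 in WT, and the lowest array was again Abhd15 KO replicate 4.

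Gpd2, the mitochondrial dehydrogenase that oxidises glycerol 3-phosphate back and passes its electrons to the respiratory chain, read 10.64, 10.73, 10.59, 10.75 and 10.69 in KO-labelled arrays and 10.55, 10.63 and 10.64 in WT. The 3 highest arrays were all labelled Abhd15 KO, but the lowest of that label lay inside the WT range. The difference was 0.07 (−0.14 to 0.29, exact permutation p = 0.143). Its interval was the narrowest among the members, with a half-width of 0.22 log2, and on the linear scale it runs from 0.90 to 1.22 times the WT level.

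Pck1, the cytosolic phosphoenolpyruvate carboxykinase that controls glyceroneogenesis in fat, read 12.33, 12.25, 12.07, 12.14 and 12.16 in KO-labelled arrays and 12.39, 12.38 and 12.19 in WT. WT replicates 1 and 2 were the highest of the 8 arrays, and WT replicate 3 lay among KO-labelled arrays. The difference was −0.13 (−0.37 to 0.12, exact permutation p = 0.161), or 0.92 times the WT level with an interval of 0.77 to 1.09. Over the 18 alternative settings it ran from −0.19 to −0.09 and passed the test in 0 of them. These settings reuse the same arrays. Dim filters, trend with robust fitting and probe set means could not move it from −0.13, so its constant sign is no added support.

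Aqp7, the aquaglyceroporin through which glycerol leaves and enters fat cells, read 11.10, 10.74, 10.66, 10.58 and 10.48 in KO-labelled arrays and 10.67, 10.85 and 10.64 in WT. Abhd15 KO replicate 1 was the highest array and WT replicate 2 the second, and the other 6 arrays lay between 10.48 and 10.74. The difference between the groups was −0.01 (−0.34 to 0.33, exact permutation p = 0.964), and −0.04 (−0.34 to 0.26) without these 2 arrays.

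The genes of esterification were each slightly higher in KO-labelled arrays, by 0.06 to 0.26 log2, with 0 of 5 past the test. Gpam, the mitochondrial glycerol 3-phosphate acyltransferase that adds the first fatty acid, read 10.29, 10.86, 10.52, 10.96 and 11.01 in KO-labelled arrays and 10.98, 10.07 and 10.89 in WT. The lowest arrays of both groups, Abhd15 KO replicate 1 and WT replicate 2, were the 2 lowest of all. The difference was 0.08 (−0.47 to 0.62, exact permutation p = 0.786), the widest interval among the members. Without both arrays it was −0.10 (−0.50 to 0.29), the opposite direction.

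Agpat2, which adds the second fatty acid and whose loss causes a congenital lipodystrophy in humans, read 11.14, 11.34, 10.85, 11.25 and 11.33 in KO-labelled arrays and 11.06, 11.03 and 11.10 in WT. Of the 5 arrays labelled Abhd15 KO, 4 lay above every WT array and replicate 3 lay below every one. The SD was 0.20 in KO-labelled arrays (n = 5) and 0.03 in WT (n = 3), and the difference was 0.12 (−0.18 to 0.42, exact permutation p = 0.357).

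Lpin1, the phosphatidate phosphatase that makes diacylglycerol and also acts in the nucleus as a coactivator, read 10.55, 10.99, 11.18, 10.84 and 11.24 in KO-labelled arrays and 11.01, 10.40 and 10.69 in WT. Abhd15 KO replicate 1 and WT replicate 2 were again the 2 lowest arrays. Its difference was the largest among the members at 0.26 (−0.17 to 0.69, exact permutation p = 0.268), or 1.20 times the WT level with an interval of 0.89 to 1.62. Leaving out 1 array at a time moved it between 0.11, without WT replicate 2, and 0.42, without WT replicate 1. It was 0.36 without Abhd15 KO replicate 1 and 0.21 (−0.18 to 0.61) without the pair.

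Dgat1 and Dgat2 encode unrelated enzymes for the last step. Dgat1 read 9.02, 9.26, 8.85, 9.30 and 9.04 in KO-labelled arrays and 8.91, 8.92 and 9.12 in WT. Its difference was 0.11 (−0.18 to 0.41, exact permutation p = 0.375). Abhd15 KO replicates 2 and 4 were highest and replicate 3 was lowest, so the WT arrays lay inside the spread of the others.

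Dgat2 read 11.43, 11.92, 11.48, 11.36 and 11.58 in KO-labelled arrays and 11.62, 11.22 and 11.66 in WT. Abhd15 KO replicate 2 was the highest array and WT replicate 2 the lowest. The difference was 0.06 (−0.31 to 0.42, exact permutation p = 0.75). It was −0.08 without WT replicate 2, −0.03 without Abhd15 KO replicate 2 and −0.05 without the pair low in Angptl8, so its direction rests on single arrays.

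**Figure D2:**
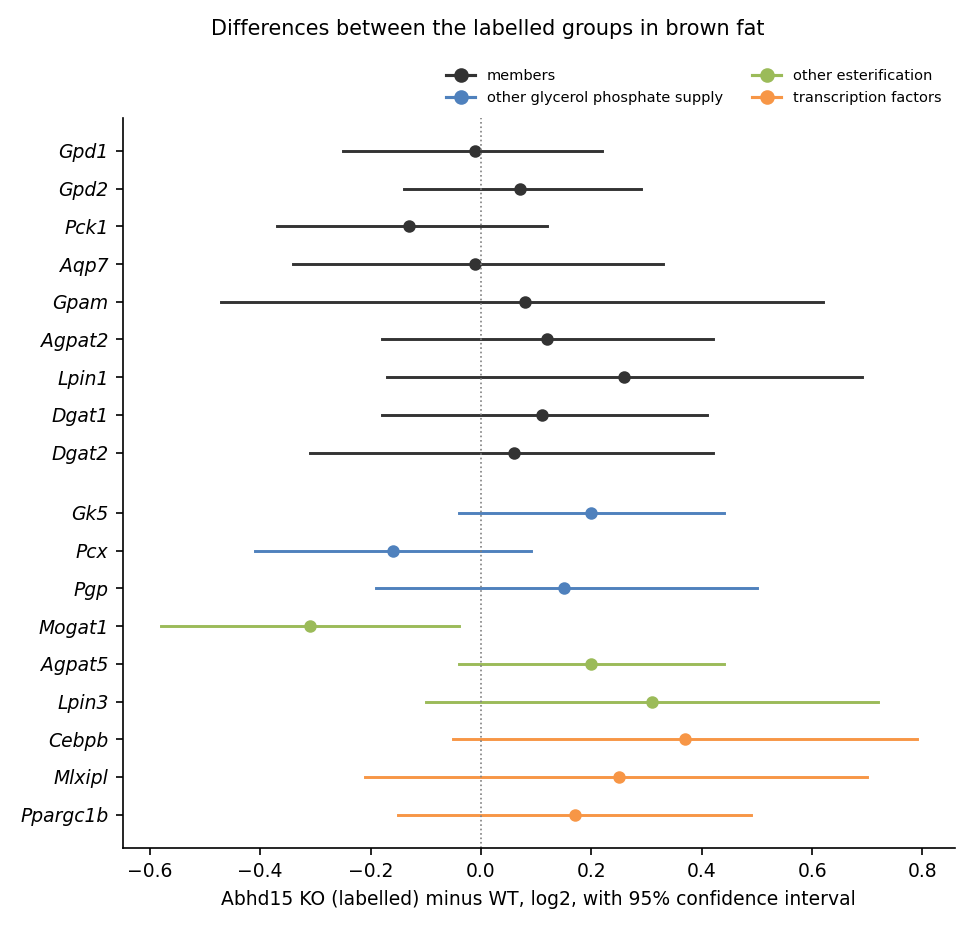
Difference between KO-labelled arrays and WT (log2, horizontal axis, points) with 95% confidence intervals (lines) for the 9 members and for the 3 genes of lowest unadjusted p in each related list. All 9 member intervals include 0, and of the 9 related genes drawn only Mogat1 has an interval that does not, before any adjustment for the number of genes.

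The intervals bound what these arrays could show. Half-widths for the members ran from 0.22 to 0.55 log2, against a median of 0.36 over all genes tested. For Gpd1, Gpd2, Pck1 and Aqp7 the upper ends lay at 1.25 times the WT level or below, and the lower ends at 0.77 or above. For Gpam the interval ran from 0.72 to 1.54 times the WT level. The intervals carry no adjustment for multiple genes, and a p above the threshold does not show that the levels were equal.

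The members differed in how much they varied between mice, and supply and esterification genes overlapped in this. Highest over lowest of the 8 arrays was 1.15-fold for Gpd2, 1.16-fold for Gpd1, 1.25-fold for Pck1 and 1.53-fold for Aqp7. Among the esterification genes it was 1.36-fold for Dgat1, 1.41-fold for Agpat2, 1.62-fold for Dgat2, 1.79-fold for Lpin1 and 1.91-fold for Gpam. Bright probe sets vary less on these arrays, so the members were set beside the 606 tested genes whose means lay between those of the members, 9.05 and 12.24. The median residual SD within groups was 0.10 log2 over the 4 supply genes and 0.23 over the 5 esterification genes, against 0.12 for those 606 genes. Of the 606 genes, 5.45% had a range at least as wide as Gpam, 6.77% as Lpin1 and 11.2% as Dgat2, whereas 83.5% did as Gpd1 and 88.0% as Gpd2. The same 606 genes, with means from 9.05 to 12.24, served for every member, so brightness was matched only roughly for each. This set was chosen after the values were seen and is a description only.

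**Figure D3:**
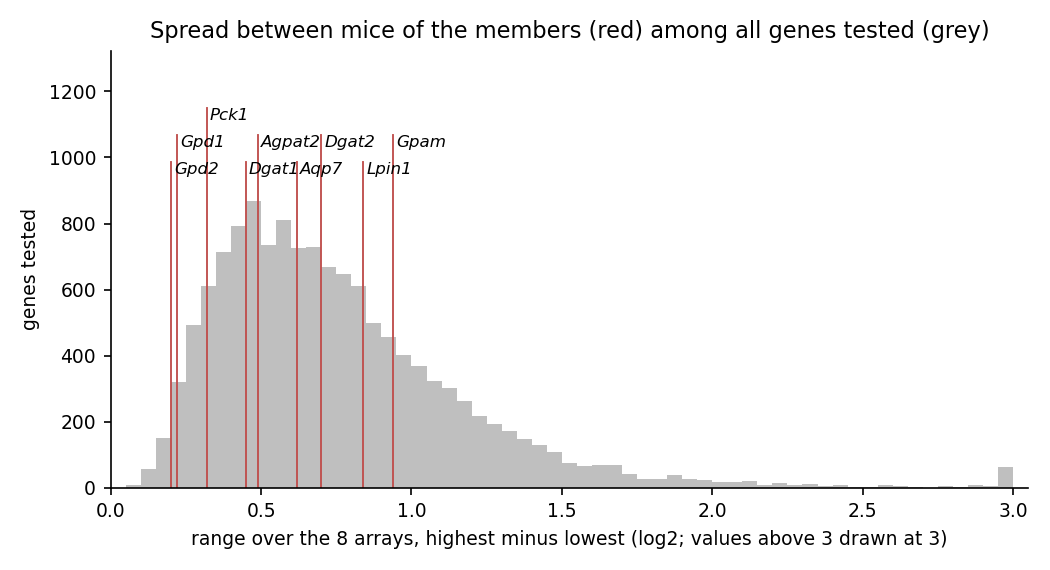
Range over the 8 arrays (highest minus lowest, log2, horizontal axis) of all 13229 genes tested, drawn as a grey histogram (number of genes, vertical axis), with the 9 members as red lines. Gpd2 and Gpd1 lie at the narrow end at 0.20 and 0.22, and Lpin1 and Gpam are the widest members at 0.84 and 0.94.

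The widest members were low together in the pair of arrays low in Angptl8. Gpam and Lpin1 both had Abhd15 KO replicate 1 and WT replicate 2 as their 2 lowest arrays, which holds for 7.67% of all genes tested. Aqp7 had the same arrays as its 2 highest, which holds for 9.62% of all genes tested. Averaged over the 5 esterification genes, each taken relative to its own mean over the 8 arrays, the level was −0.17, 0.22, −0.08, 0.08 and 0.18 log2 in KO-labelled arrays and 0.06, −0.33 and 0.03 in WT. Averaged over the 4 supply genes it was 0.11, 0.05, −0.09, −0.06 and −0.04 in KO-labelled arrays and −0.00, 0.05 and −0.01 in WT. The low esterification means of the pair rested largely on Gpam and Lpin1, the members seen to be low there. Over Agpat2, Dgat1 and Dgat2 alone the means were −0.05, 0.26, −0.18, 0.06 and 0.08 in KO-labelled arrays and −0.04, −0.18 and 0.05 in WT, so Abhd15 KO replicate 3 was as low as WT replicate 2, and Abhd15 KO replicate 1 was near 0. Without Aqp7, the supply mean of Abhd15 KO replicate 1 was 0.02 and that of WT replicate 2 was 0.02. The pair holds 1 array of each label, so this pattern is not a difference between the groups. Macrophage markers had their highest summed linear intensities in the same arrays, 1021.3 in Abhd15 KO replicate 1 and 1203.9 in WT replicate 2, against 556.1 to 941.5 in the others, and 6 of the 15 markers had these as their 2 highest arrays. Brown adipocyte markers summed to 27723.7 and 26743.3 there, inside the range of 25551.0 to 28764.6 of the other arrays. The part of the macrophage markers in the pattern was not tested.

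**Figure D4:**
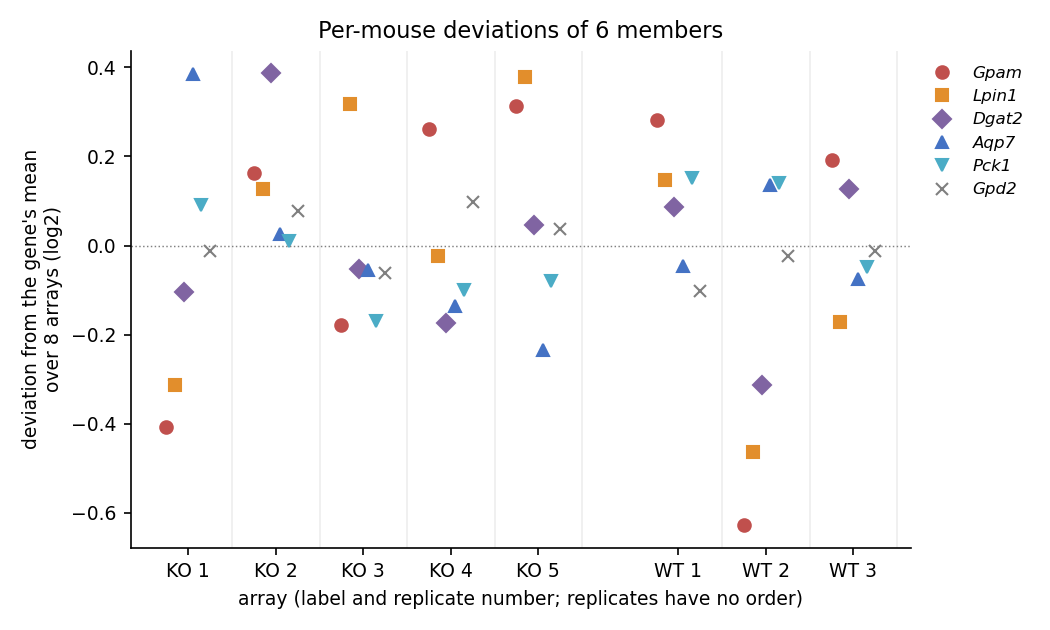
Deviation of 6 members from their own mean over the 8 arrays (log2, vertical axis) in each array labelled Abhd15 KO (left) and WT (right). In Abhd15 KO replicate 1 and WT replicate 2, Gpam and Lpin1 lie below 0 and Aqp7 above it, while Gpd2 stays near 0.

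The promoter windows of the members that stood out in those arrays, and of Pck1, are shown because the genes differed in how they followed the pair. RefSeq windows of 250 bases before to 50 bases after a transcript start (GRCm38.p6) were matched for 7 of the 10 listed genes, Gk included. Capitals mark 4 motifs searched on both strands: AGGTCA, the half-site of nuclear receptors, CACGTG, an E-box, CCAAT, and TGACG, the shortened cyclic AMP response element. No matches overlapped. All sequences run 5′ to 3′ on the strand of the gene.
Gpam, first window, chr19:55127189-55127488, minus strand: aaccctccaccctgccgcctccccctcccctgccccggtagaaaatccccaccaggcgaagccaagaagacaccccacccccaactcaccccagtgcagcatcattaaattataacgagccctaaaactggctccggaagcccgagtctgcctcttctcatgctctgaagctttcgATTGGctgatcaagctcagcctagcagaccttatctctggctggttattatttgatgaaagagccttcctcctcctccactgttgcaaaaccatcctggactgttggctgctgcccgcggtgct
Gpam, second window, chr19:55099428-55099727, minus strand: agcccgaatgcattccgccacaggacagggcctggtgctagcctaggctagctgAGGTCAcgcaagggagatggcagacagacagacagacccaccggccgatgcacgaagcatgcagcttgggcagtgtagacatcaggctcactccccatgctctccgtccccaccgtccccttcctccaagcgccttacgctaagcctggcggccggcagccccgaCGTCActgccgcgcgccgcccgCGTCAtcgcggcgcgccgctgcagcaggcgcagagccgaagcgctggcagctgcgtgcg
Lpin1, chr12:16610917-16611216, minus strand: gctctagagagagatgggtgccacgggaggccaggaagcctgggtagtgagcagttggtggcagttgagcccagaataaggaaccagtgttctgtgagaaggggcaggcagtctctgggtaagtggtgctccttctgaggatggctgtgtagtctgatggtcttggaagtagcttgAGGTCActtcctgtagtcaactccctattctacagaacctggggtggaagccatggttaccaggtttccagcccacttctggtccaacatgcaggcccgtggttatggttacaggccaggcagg
Aqp7, second of 2 overlapping windows, chr4:41047913-41048212, minus strand: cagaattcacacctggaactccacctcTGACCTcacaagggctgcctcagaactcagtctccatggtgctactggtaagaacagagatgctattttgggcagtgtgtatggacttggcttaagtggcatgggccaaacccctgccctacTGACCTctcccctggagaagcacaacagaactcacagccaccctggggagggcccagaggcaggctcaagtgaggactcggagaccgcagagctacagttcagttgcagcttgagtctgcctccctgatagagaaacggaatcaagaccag
Pck1, chr2:173152823-173153122, plus strand: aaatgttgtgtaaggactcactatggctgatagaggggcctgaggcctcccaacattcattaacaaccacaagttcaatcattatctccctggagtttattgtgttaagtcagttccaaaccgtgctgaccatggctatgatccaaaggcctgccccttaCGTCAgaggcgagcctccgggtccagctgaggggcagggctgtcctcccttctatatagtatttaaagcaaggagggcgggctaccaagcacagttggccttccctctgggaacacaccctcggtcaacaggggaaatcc

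The nuclear receptor motif was found once in the second Gpam window, once in Lpin1 and at 2 places in Aqp7. Whether this motif bears on the levels of these genes was not tested. Of all 32851 promoter windows of the same length, 16.3% hold the nuclear receptor motif. The cyclic AMP motif was found at 2 places in the second Gpam window and once in Pck1, 90 bases before the start on the minus strand, in the stretch known as the cyclic AMP response element of this gene. Of all windows 20.8% hold it. The CCAAT motif was found once, in the first Gpam window, and 37.4% of all windows hold it. The E-box, which 7.15% of all windows hold, was in none of the 5 windows shown. The Gk window, which is not shown, holds the E-box once and the cyclic AMP motif once. The windows of Gpd2 and Agpat2 held none of the 4 motifs. A match is a run of letters, and nothing was measured at these sites.

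Genes with patterns most like the 3 widest members were found by the mean absolute difference between centred log2 values over the 8 arrays. For Gpam these were Nudt4, an inositol pyrophosphate phosphatase (0.06 log2), Gnmt, glycine N-methyltransferase (0.07), and Elmod2 (0.08), where the median over all genes tested was 0.34. For Lpin1 they were the ABC transporter gene Abca5, the long noncoding RNA Lncpint and Cdk2ap1, each at 0.08 against a median of 0.29. For Dgat2 they were Gsg1l (0.05), the actin-binding protein gene Afap1 (0.06) and the histone methyltransferase gene Setd1a (0.06), against a median of 0.24. Gsg1l read 2.88 to 3.61 in KO-labelled arrays and 2.94 to 3.38 in WT, close to the dim limit of 2.88. With 8 arrays and 13229 genes, such matches are a description.

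Other genes of glycerol phosphate supply gave no call. Of 14 listed genes, 10 were tested, 7 were higher and 3 lower in KO-labelled arrays. Their median was 0.06, and 0 passed the test. Aqp3 and Aqp9, the other aquaglyceroporins listed, and the glycerol kinase relative Gk2 were dim. The 3 genes of lowest p were Gk5, a relative of glycerol kinase, at 0.20 (−0.04 to 0.44), Pcx, pyruvate carboxylase, which acts before Pck1 in glyceroneogenesis, at −0.16 (−0.41 to 0.09), and Pgp, a phosphatase that can hydrolyse glycerol 3-phosphate, at 0.15 (−0.19 to 0.50). Pcx read 9.73, 9.84, 9.69, 9.58 and 9.53 in KO-labelled arrays and 9.90, 9.88 and 9.73 in WT. For Pcx, as for Pck1, the highest arrays were WT replicates 1 and 2. Pcx was named for its low p, and the share of all genes with this order was not counted, so this is a description only. Pck2 of the same list, named after its values were seen, had WT replicate 1 highest at 6.96 but WT replicate 2 lowest at 6.01.

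Of 25 other esterification genes, 21 were tested, 13 were higher and 8 lower, with a median of 0.04 and 0 past the test after adjustment. One, Mogat1, had an unadjusted p under 0.05, as 4.01% of all genes tested had. Mogat1 and Agpat5 did not overlap between the groups, which holds for 2.77% of all genes tested. Mogat1, a monoacylglycerol acyltransferase, read 4.45, 4.64, 4.39, 4.31 and 4.61 in KO-labelled arrays and 4.69, 4.74 and 4.93 in WT, a difference of −0.31 (−0.58 to −0.04, limma adjusted p = 0.9997). Agpat5, a mitochondrial relative of Agpat2, differed by 0.20 (−0.04 to 0.44), and Lpin3, a lipin that read less than 2 log2 above the dim limit, by 0.31 (−0.10 to 0.72). Mogat2 read 2.85 to 3.25 in KO-labelled arrays and 2.79 to 2.83 in WT. It also did not overlap, but all its WT values lay below the dim limit of 2.88, so it was tested only through KO-labelled arrays and nothing is read from it.

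Gpat3, the acyltransferase of the endoplasmic reticulum for the same step as Gpam, was named after its values were seen because it varied most among the tested genes of the related lists. It read 6.49, 7.05, 5.96, 6.88 and 7.76 in KO-labelled arrays and 7.86, 6.04 and 7.30 in WT, a range of 3.75-fold. WT replicate 2 was low as for Gpam, but Abhd15 KO replicate 3 was lower still. The difference was −0.24 (−1.27 to 0.79). A second Gpat3 probe set (17450196) read 3.81 to 4.75 in KO-labelled arrays and 4.28 to 5.30 in WT. Its lowest array was Abhd15 KO replicate 5, which was second highest on the first. Abhd15 KO replicate 4 also changed rank, at 6.88 on the first and 3.86 on the second. The remaining arrays had the same order on both probe sets, from WT replicate 1 down to Abhd15 KO replicate 3. The probe sets thus disagreed in Abhd15 KO replicates 4 and 5.

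Transcription factors known for this pathway gave 11 of 15 higher and 4 lower in KO-labelled arrays. Their median was 0.08, and 0 passed the test. The lowest p values belonged to Cebpb, an early adipogenic factor (0.37, −0.05 to 0.79), Mlxipl, the carbohydrate response factor ChREBP (0.25, −0.21 to 0.70), and Ppargc1b, a coactivator of mitochondrial genes (0.17, −0.15 to 0.49). In this list of 15, 3 genes had Abhd15 KO replicate 1 and WT replicate 2 as their 2 lowest arrays, where 7.67% of all genes tested did. Another 1 had them as its 2 highest, where 9.62% did. These 4 genes are named after their values were seen and are a description only. Srebf1, the gene of the lipogenic factor SREBP-1c, read 6.84 and 6.85 in the pair and 7.18 to 8.11 elsewhere. Pparg, the nuclear receptor of fat cell formation, read 10.37 and 10.37 against 10.50 to 10.68, and Cebpa 9.43 and 9.13 against 9.55 to 9.88. Foxo1 read 8.62 and 8.63 there against 7.46 to 7.93, and its second probe set (17405165) read 6.06 and 5.92 against 4.39 to 5.57. In all 4 genes the groups overlapped, and the differences between them were −0.10 for Srebf1, −0.04 for Pparg, 0.19 for Cebpa and 0.03 for Foxo1. Why these genes were low or high in the pair was not tested.

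Markers of other cell types were read beside these genes. Of 15 macrophage markers 12 were lower in KO-labelled arrays, with a median of −0.20 log2, and their summed linear intensities ran from 556.1 to 1021.3 there and from 752.2 to 1203.9 in WT. Of these 15 markers, 2 had an unadjusted p under 0.05 by limma and 1 did not overlap between the groups. Over all genes tested the shares were 4.01% and 2.77%. Of 10 white adipocyte markers 6 were lower and 4 higher, by up to 0.52, with a median of −0.30, and 3 had an unadjusted p under 0.05 by limma, where 4.01% of all genes tested did. Their summed linear intensities were 1409.0 to 1832.5 in KO-labelled arrays and 1860.2 to 1988.7 in WT. These sums, in which the brightest markers weigh most, did not overlap between the groups, but lay close at 1832.5 against 1860.2. Of the 10 white adipocyte markers themselves, 2 did not overlap, which holds for 2.77% of all genes tested. Endothelial markers were higher in 10 of 10 cases, with a median of 0.12 and sums of 1829.2 to 2278.1 in KO-labelled arrays and 1700.2 to 2062.2 in WT. Of the 6 hepatocyte markers 5 were tested, with a median of 0.15 and 4 of them higher, and Tat was dim. Brown adipocyte markers had a median of −0.02, with 6 of 14 higher. In each of these lists 0 genes passed the test, and their part in the members' values was not tested.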

How the data were processed

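Brown fat RNA of 8 mice was hybridised to Affymetrix Mouse Gene 2.0 ST arrays, 1 mouse each. The deposited log2 values were made with RMA and oligo, per the submitters' processing notes, with no version given. The design text also names Expression Console, so the program is not settled. RMA would hide a change shared by most genes.

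The table held 41345 probe sets, of which 23521 had 1 symbol in the platform annotation, 1814 several and 16010 none. Entrez identifiers were matched to RefSeq for 23328. The brightest probe set stood for each of 22180 genes. The dim limit, 2.88 log2, was the 95th percentile of 1405 olfactory and vomeronasal receptor probe sets, and 13229 genes lay above it in at least 3 arrays, all 9 members found among them. The group difference was fitted with limma 3.58.1 (R 4.3.3), with Benjamini-Hochberg adjustment over all genes tested (threshold 0.05). Single values also had an exact permutation test over the 56 splits of the arrays, which allows no p below 0.0179. The steps were tested on simulated data. Array number limits the precision.

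The members, lists and alternatives were chosen with earlier results of these data known. All members were named, and the 3 genes of lowest p in each related list. The alternatives were a replicate block, dim filters, centring, quantile normalization, trend with robust fitting, array weights, probe set means, a muscle covariate and leaving out arrays. Array correlations of 0.964 to 0.975 showed no duplicate.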

Additional observations from a re-analysis of the deposited data

Results flagged for a closer look

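Of 20 genes checked for a lone array among the 5 labelled Abhd15 KO, 2 were past Dixon's critical value. Chance flags about 1 in 20, and Angptl8 was included because this array was already known to stand apart in it, so its flag restates that. The single flag left, Gk5, is about what chance gives. Gk5 had a gap of 0.84 of its range, with Abhd15 KO replicate 1 lowest at 5.57 and the others at 5.80 to 5.84. Angptl8 had a gap of 0.86, with the same array at 7.90 and the others at 10.41 to 10.81. None of the 9 members was past that value.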

How the results depend on the processing

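In all 18 alternatives 0 genes and 0 members passed the adjusted threshold, and 0 members had an unadjusted p under 0.05 by limma. The members' median difference ranged from −0.04, without the pair low in Angptl8, to 0.13, without WT replicate 3. Gpd2, Pck1, Agpat2, Lpin1 and Dgat1 kept their direction in each alternative. The alternatives reuse the same arrays, and dim filters and trend with robust fitting cannot change a difference, so this is no added support for a direction. Leaving out 1 array at a time gave −0.06 to 0.04 for Gpd1, −0.11 to 0.06 for Aqp7, −0.21 to 0.24 for Gpam and −0.08 to 0.14 for Dgat2. Directions also turned without the pair for Gpam (−0.10) and Dgat2 (−0.05), with the muscle covariate for Dgat2 (−0.01), and with the replicate block for Aqp7 (0.11) and Gpam (−0.09). The cause was not tested. The labels do not say that replicate numbers pair arrays. Same-numbered arrays correlated at −0.26, −0.10 and 0.02 in their deviations from the group means, and KO-labelled and WT arrays of different number at −0.25 to 0.39. So few correlations cannot show whether arrays shared a litter, cage or harvest day. Under the replicate block the members' median was 0.04 with 0 genes called. With 3 WT arrays the median half-width of the unadjusted intervals was 0.36 log2, and the adjusted threshold asks for more than an interval that leaves out 0.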
